A study of Mus musculus with 6 samples.

Results

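The 10 genes described here are the glucocorticoid receptor gene Nr3c1, the mineralocorticoid receptor gene Nr3c2, the glucocorticoid target genes Fkbp5, Sgk1, Tsc22d3, Zbtb16 and Cdkn1a, and the metallothionein genes Mt1, Mt2 and Mt3. They were chosen by name from the 54532 gene identifiers of the deposited count table, and all 10 were among the 17042 genes that passed the low-count filter. Messenger RNA was measured by sequencing in cortex, labelled as neural cells, of 5XFAD mice. These mice carry human transgenes that model familial Alzheimer's disease, driven in neurons by Thy1 promoter elements. The 3 cell-treated libraries came from mice given a cell therapy, which the series title describes as human GABAergic interneurons made from induced pluripotent stem cells, and the 3 control libraries came from 5XFAD mice without it. Both groups carry the transgenes and no mice without them were analysed here. Age, sex, the number of transplanted cells, the time after transplantation and any sham injection are not given in the sources used here. In the 6 libraries Xist was at 564 to 1183 CPM, while the Y-linked genes Ddx3y, Uty, Kdm5d and Eif2s3y had 0 counts. That is the pattern of female tissue in both groups. Each group is described as 3 biological replicates, and p-values set the group difference against the spread between these samples. Human reads from the graft were not separated from mouse reads. The control columns of the table are named for the disease and were taken as controls because the other columns are named treated, so the sign of every difference rests on that reading. The series' design text uses the opposite words, giving the name control to the mice with cell therapy, and here the sample titles and treatment labels were followed.

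Glucocorticoids such as corticosterone enter cells and bind the glucocorticoid receptor, which is held ready by a chaperone complex and moves into the nucleus to act at glucocorticoid response elements in DNA. In the brain the mineralocorticoid receptor binds corticosterone more tightly and is already occupied at low hormone levels, while the glucocorticoid receptor is engaged under stress and at the daily peak. Metallothioneins are small cysteine-rich proteins that bind zinc and copper. The zinc sensor MTF1 acts on Mt1 and Mt2 through metal response elements, glucocorticoids and cytokines also induce both genes, and both are strongly expressed in astrocytes. Mt3 is a brain metallothionein that was first described as a growth inhibitory factor and is less responsive to metals and hormones.

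Promoter sequences are shown for the metallothionein genes, because they differ in metal response elements, and for Sgk1 and Cdkn1a, because rare motifs lay in their windows. They come from RefSeq on build GRCm38.p6, plus strand, in windows of 250 bases before to 50 bases after an annotated start. Windows were given for 8 of the 10 members, 16 in all. Capitals mark metal response element cores (TGCGCNC or TGCACNC, both strands) in the metallothionein sequences, the palindromic glucocorticoid response element (AGAACA and TGTTCT with 3 bases between) in Sgk1, and a paired p53 core (CATG and CATG with 6 bases between) in Cdkn1a.
Mt1 upstream, chr8:94178839-94179081: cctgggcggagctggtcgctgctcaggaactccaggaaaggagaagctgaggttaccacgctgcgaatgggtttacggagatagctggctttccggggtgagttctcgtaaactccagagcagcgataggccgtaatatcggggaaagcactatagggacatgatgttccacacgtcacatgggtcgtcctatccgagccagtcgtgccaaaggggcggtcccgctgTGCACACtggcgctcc
Mt1 after the start, chr8:94179091-94179115: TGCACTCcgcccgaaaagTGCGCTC
Mt2 upstream, chr8:94172368-94172617: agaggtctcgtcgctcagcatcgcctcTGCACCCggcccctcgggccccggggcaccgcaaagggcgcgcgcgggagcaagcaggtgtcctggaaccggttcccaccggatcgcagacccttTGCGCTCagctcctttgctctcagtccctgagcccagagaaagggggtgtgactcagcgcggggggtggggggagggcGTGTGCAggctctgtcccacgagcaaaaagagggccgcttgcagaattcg
Mt3 upstream, chr8:94152357-94152606: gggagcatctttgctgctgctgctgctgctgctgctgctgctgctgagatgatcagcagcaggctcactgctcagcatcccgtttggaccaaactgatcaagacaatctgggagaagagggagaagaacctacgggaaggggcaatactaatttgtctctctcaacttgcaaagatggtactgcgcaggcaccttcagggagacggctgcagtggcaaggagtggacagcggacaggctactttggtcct
Sgk1 upstream, chr10:21993676-21993740: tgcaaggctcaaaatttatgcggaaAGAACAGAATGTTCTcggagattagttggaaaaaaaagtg
Cdkn1a upstream, chr17:29090906-29090969: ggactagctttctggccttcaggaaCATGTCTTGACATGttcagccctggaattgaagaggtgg

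Within their whole windows Mt2 held 4 metal response element cores, Mt1 held 3 and Mt3 held 1. The Mt2 cores started at positions -223, -128, -50 and 5 relative to the RefSeq transcript start, the Mt1 cores at -23, 3 and 21, and the Mt3 core at 28. A core occurred in 25.7% of all 32851 promoter windows of this length, at least 3 cores in 1.97% and at least 4 in 0.517%. The palindromic glucocorticoid response element occurred in 3 of all windows (0.00913%), and it lay at -189 in 1 of the 6 windows of Sgk1. A looser form (GNACA and TGTNC with 3 bases between), which the palindrome always contains, occurred in 0.475% of windows, including that of Mt1 at -94. The paired p53 core occurred in 0.712% of windows and lay at -48 in Cdkn1a. An antioxidant response element core (TGACNNNGC) occurred in 12.4% of windows, including that of Mt2 at -79 and another of Cdkn1a at 28. Nr3c2 had 1 metal response element core at -29, and another window of Sgk1 had 1 at 12. The windows of Fkbp5 and Tsc22d3 held none of these letters. These matches describe letters in the windows and are not evidence of binding.

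The 6 libraries held between 14880969 and 16696463 counts in the cell-treated group and between 14221519 and 15607280 in the control group. Cell-treated library 3 stood apart, with a mean Pearson correlation of 0.936 with the other libraries across genes, against 0.963 to 0.968 for the other 5. In that library 253 genes reached 10 CPM and exceeded the next library at least 2-fold, and 345 lay at least 2-fold below the next library where that was at 10 CPM or more. Excitatory neuron markers summed to between 3338 and 4734 CPM in cell-treated libraries and between 3105 and 5371 CPM in controls, while astrocyte and oligodendrocyte markers were also abundant, so the tissue held glia as well as neurons. Results that rest on cell-treated library 3 are given with and without it.

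No member passed the test between cell-treated and control cortex after adjustment. Fkbp5, Sgk1, Mt1 and Mt2 were each highest in cell-treated library 3 and lower in cell-treated libraries 1 and 2 than in control library 1. With cell-treated library 3 left out, Fkbp5, Sgk1 and Mt3 were lower in both remaining cell-treated libraries than in all 3 controls, and Nr3c1 was higher. Groups so reduced did not overlap for 22.4% of all genes, 11.3% higher and 11.1% lower. Zbtb16, a transcriptional repressor induced by glucocorticoids, had the smallest p among the members with all libraries, at 31.8 ± 12.4 CPM in cell-treated and 16.8 ± 4.08 CPM in control cortex (SD, n = 3 each). In edgeR's quasi-likelihood test with Benjamini-Hochberg adjustment 0 of the 10 members passed, as did 0 (0%) of the 17042 genes tested, and the adjusted p was 0.999 for every member. DESeq2, limma voom and limma on FPKM values also called 0 members. At an unadjusted p under 0.05 there was 1 member, against 2% of all genes tested, 0.939% with higher and 1.06% with lower values. The groups did not overlap for 0 members, against 8.6% of all genes. Fitted log2 fold changes were above 0 for 8 members and below 0 for 2, with a median of 0.33, against 50.2% of all genes above 0 and a median of 0.0013.

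**Figure D1:**
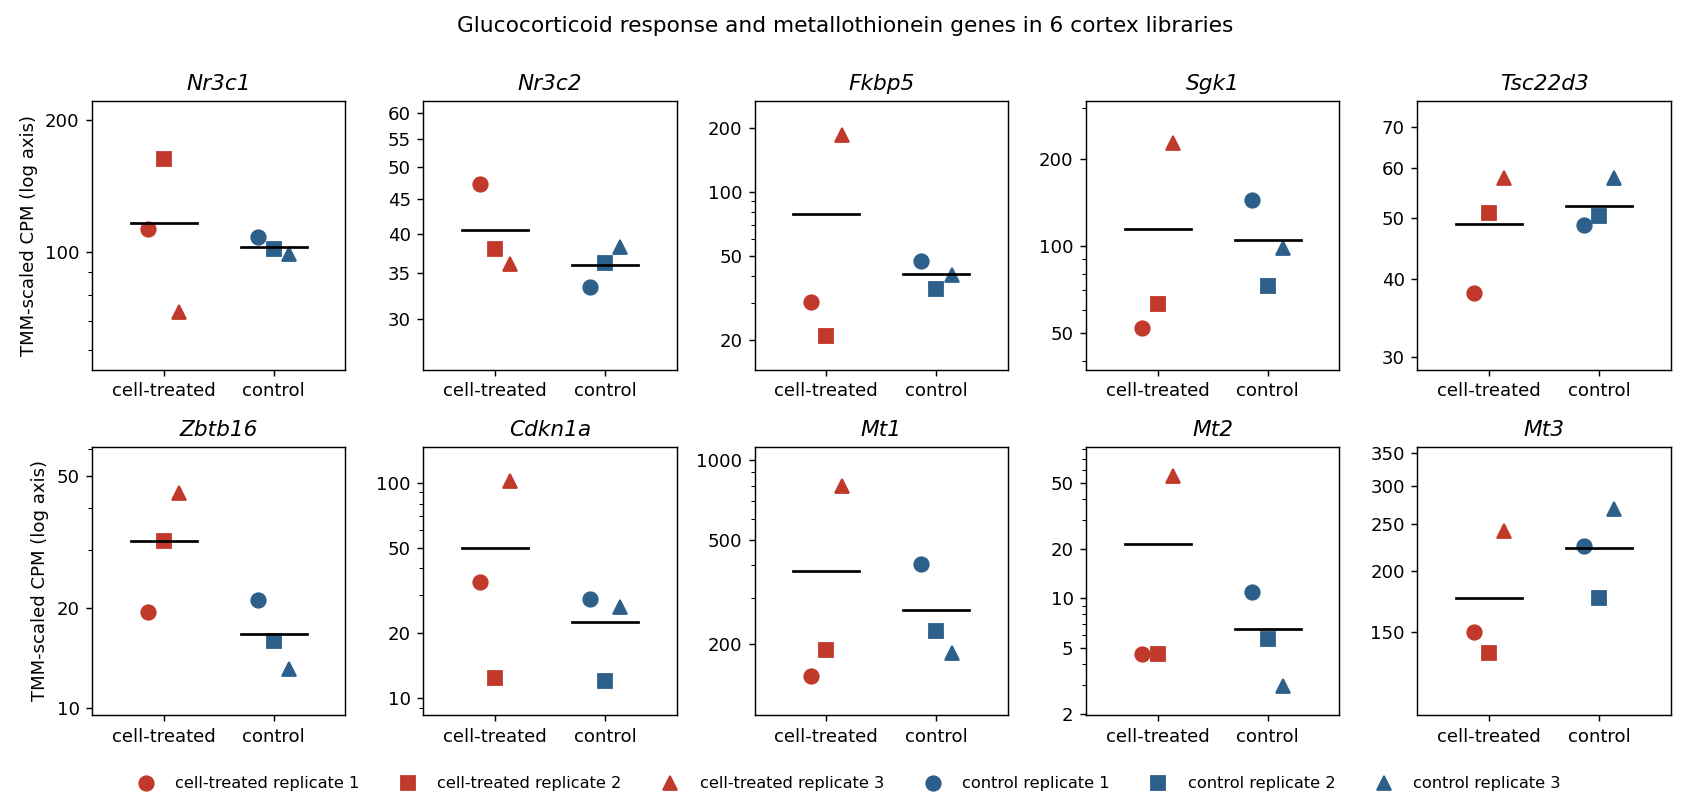
Level of each member in the 6 libraries, in TMM-scaled CPM on a logarithmic axis, with cell-treated libraries left of controls, numbered by replicate. Bars mark group means. Cell-treated library 3 lies far above all other libraries for Fkbp5, Cdkn1a and Mt2, and the groups overlap for all 10 genes.

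Per length, the metallothioneins Mt1 and Mt3 were the most abundant members. Mt1 averaged 307 ± 295 FPKM in cell-treated and 216 ± 91.2 FPKM in control cortex, and Mt3 averaged 166 ± 55.8 FPKM in cell-treated and 208 ± 42.5 FPKM in control cortex (SD, n = 3 each). Averaged over all 6 libraries, the order of FPKM was Mt1 (262), Mt3 (187), Mt2 (23.9), Sgk1 (22.3), Nr3c1 (14.7), Tsc22d3 (11.6), Cdkn1a (10.2), Fkbp5 (6.33), Nr3c2 (5.89) and Zbtb16 (4.60). All neighbours in this order overlapped in their range over the 6 libraries except Mt3 and Mt2, where every Mt3 value (at least 127 FPKM) lay above every Mt2 value (at most 94.8 FPKM). Several places rested on cell-treated library 3, where Mt2 was at 94.8 FPKM, against 4.96 to 18.5 FPKM in the other 5. Averaged over those 5 libraries, Mt2 was at 9.72 FPKM, below Sgk1, Nr3c1 and Tsc22d3, and Fkbp5 was last at 3.65 FPKM, below Nr3c2 at 5.94 and Zbtb16 at 3.82 FPKM.

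Nr3c1 (chromosome 18, 39410545 to 39491301, minus strand, as deposited) encodes the glucocorticoid receptor. Values are given for libraries 1, 2 and 3 of a group in that order. Nr3c1 was at 113, 163 and 73.2 CPM in cell-treated libraries, against 108, 102 and 98.9 CPM in controls. The 3 controls lay close together, while the cell-treated libraries held both the highest value, in library 2, and the lowest, in library 3, so the groups overlapped. Its log2 fold change was 0.18 ± 0.28 (SE), with a 95% interval from -0.46 to 0.81 and an unadjusted edgeR p of 0.539. Without cell-treated library 3 both remaining cell-treated values lay above all controls, and the log2 fold change was 0.42 ± 0.18 (edgeR p 0.0547, adjusted p between 0.914 and 0.991 for every member). Without cell-treated library 2 it was -0.15. Fewer cells of a type and less RNA per cell cannot be told apart in these bulk samples.

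Nr3c2 (chromosome 8, 76899442 to 77245012, plus strand) encodes the mineralocorticoid receptor. It was at 47.3, 38.0 and 36.1 CPM in cell-treated libraries, against 33.4, 36.2 and 38.3 CPM in controls. The groups overlapped, and all 6 values lay within 1.42-fold of each other, the narrowest range among the members. Its log2 fold change was 0.17 ± 0.17, with an interval from -0.23 to 0.57 (edgeR p 0.358). The ratio of Nr3c1 to Nr3c2 in FPKM was 2.08, 3.74 and 1.77 in cell-treated libraries, against 2.82, 2.45 and 2.25 in controls. Glucocorticoid receptor transcripts were thus more abundant per length than mineralocorticoid receptor transcripts in all 6 libraries.

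Fkbp5 (chromosome 17, 28399094 to 28517527, minus strand) encodes a co-chaperone that lowers the hormone affinity of the glucocorticoid receptor and is itself induced by it. Its level was 30.2, 21.0 and 185 CPM in cell-treated libraries, against 47.4, 34.8 and 40.5 CPM in controls. The value in cell-treated library 3 was 3.89-fold above the next, whereas cell-treated libraries 1 and 2 were below every control. With all libraries the log2 fold change was 0.94 ± 0.73 with an interval from -0.75 to 2.64 (edgeR p 0.236). Without cell-treated library 3 it was -0.68 ± 0.22 with an interval from -1.19 to -0.17 (edgeR p 0.016). The direction of the Fkbp5 difference therefore rested on 1 library. Set against its receptor, the ratio of Fkbp5 to Nr3c1 in FPKM was 0.210, 0.101 and 1.98 in cell-treated libraries, against 0.344, 0.269 and 0.321 in controls.

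Sgk1 (chromosome 10, 21882184 to 21999903, plus strand) encodes a kinase that regulates ion channels and transporters and is a rapid target of both corticosteroid receptors. The gene with the palindromic element shown above was at 52.0, 63.0 and 226 CPM in cell-treated libraries, against 144, 72.4 and 98.5 CPM in controls. As for Fkbp5, cell-treated library 3 was highest, by 1.57-fold over control library 1, and cell-treated libraries 1 and 2 were below every control. With all libraries the log2 fold change was 0.12 ± 0.55, with an interval from -1.15 to 1.39 (edgeR p 0.836). It was -0.87 ± 0.28, with an interval from -1.53 to -0.20 (edgeR p 0.0171), without cell-treated library 3, and it was -0.090 without control library 2.

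Tsc22d3 (chromosome X, 140539528 to 140600659, minus strand) encodes GILZ, a leucine zipper protein that carries part of the anti-inflammatory action of glucocorticoids. It was at 37.9, 51.0 and 57.9 CPM in cell-treated libraries, against 48.7, 50.3 and 57.8 CPM in controls. Cell-treated library 3 and control library 3 were level at the top and cell-treated library 1 was lowest, so the groups overlapped. The log2 fold change was -0.10 ± 0.20, with an interval from -0.55 to 0.36 (edgeR p 0.642). It was 0.057 without cell-treated library 1. It thus lacked the high value that Fkbp5 had in cell-treated library 3.

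Zbtb16 (chromosome 9, 48654297 to 48836222, minus strand) encodes the zinc finger repressor PLZF. It was at 19.4, 31.7 and 44.3 CPM in cell-treated libraries, against 21.2, 15.9 and 13.2 CPM in controls. Cell-treated libraries 3 and 2 were highest, but cell-treated library 1 lay below control library 1, so the groups overlapped. The log2 fold change was 0.93 ± 0.32, with an interval from 0.17 to 1.68, an unadjusted edgeR p of 0.0218 and an adjusted p of 0.999. DESeq2 gave an unadjusted p of 0.00771 and an adjusted p of 1. Without cell-treated library 3 the log2 fold change was 0.61 ± 0.28 (edgeR p 0.0616). It was 0.37 by limma voom with sample quality weights (p 0.18) and 0.46 in edgeR without library 3 of both groups (p 0.145). The unadjusted edgeR p was also above 0.05 without control library 2 (0.0629) or control library 3 (0.0813).

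Cdkn1a (chromosome 17, 29090976 to 29100727, plus strand) encodes p21, a cyclin-dependent kinase inhibitor induced by p53 and also by glucocorticoids. It was at 34.8, 12.4 and 102 CPM in cell-treated libraries, against 29.0, 12.1 and 26.5 CPM in controls. At its highest, in cell-treated library 3, Cdkn1a was 2.92-fold above the next library, and library 2 was the lowest of its group on both sides. Over all libraries the log2 fold change was 1.14 ± 0.68, with an interval from -0.44 to 2.72 (edgeR p 0.134), and it was 0.065 ± 0.49 without cell-treated library 3 (edgeR p 0.898).

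The metallothionein genes lie together on chromosome 8, all on the plus strand, with Mt3 at 94152607 to 94154146, Mt2 at 94172664 to 94173568 and Mt1 at 94179082 to 94180327. The end of Mt2 is 5514 bases from the start of Mt1. Mt1 was at 152, 191 and 798 CPM in cell-treated libraries, against 403, 226 and 185 CPM in controls. The highest value, in cell-treated library 3, was 1.98-fold above that in control library 1, and the remaining 4 libraries lay between 152 and 226 CPM. For Mt1 the log2 fold change was 0.49 ± 0.62, with an interval from -0.96 to 1.93 (edgeR p 0.458), and it was -0.66 ± 0.33 without cell-treated library 3 (edgeR p 0.083).

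Mt2 had 4.58, 4.59 and 55.2 CPM in cell-treated libraries, against 10.98, 5.68 and 2.94 CPM in controls. In counts these were 73, 68 and 887 in cell-treated libraries, against 159, 81 and 46 in controls. Cell-treated library 3 was 5.03-fold above the next library, control library 1, and the 6 libraries spanned 18.8-fold, the widest range among the members. The log2 fold change was 1.72 ± 0.99, with an interval from -0.58 to 4.01 (edgeR p 0.122), against -0.51 ± 0.51 without cell-treated library 3 (edgeR p 0.348). An annotated antisense gene, Gm45774, overlaps Mt2 and had at most 19 counts in a library. Mt4 of the same family had 1 count in cell-treated library 3 and 0 in the other 5.

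Mt3 differed from its neighbours in pattern: it was at 150.0, 136 and 242 CPM in cell-treated libraries, against 225, 176 and 268 CPM in controls. Library 3 was the highest of its group on both sides, and cell-treated libraries 1 and 2 were below every control. The log2 fold change was -0.34 ± 0.27, with an interval from -0.97 to 0.28 (edgeR p 0.241), and it was -0.65 ± 0.21, with an interval from -1.13 to -0.16, without cell-treated library 3 (edgeR p 0.0163). The ratio of Mt1 to Mt3 in FPKM was 0.867, 1.20 and 2.82 in cell-treated libraries, against 1.53, 1.10 and 0.591 in controls. The ratio of Mt1 to Mt2 was 15.7, 19.6 and 6.83 in cell-treated libraries, against 17.3, 18.8 and 29.8 in controls. In cell-treated library 3, Mt1 was therefore high against Mt3 while Mt2 was high against Mt1.

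**Figure D2:**
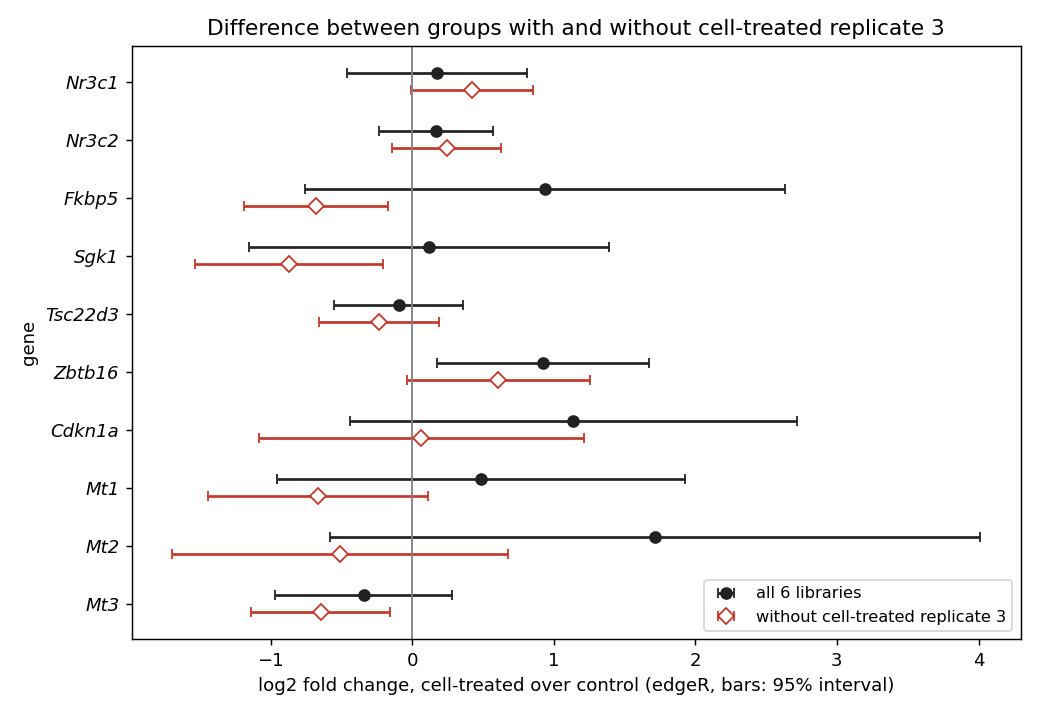
Fitted log2 fold change of each member, cell-treated over control, with 95% intervals from edgeR, for all 6 libraries and without cell-treated library 3. With all libraries the Zbtb16 interval alone lies clear of 0. Without cell-treated library 3, those of Fkbp5, Sgk1 and Mt3 lie below 0.

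Across the members, cell-treated library 3 was the highest library for 7 of 10 genes, against 28.7% of all genes tested. One of the 7 was Tsc22d3, for which control library 3 was level (1.001-fold). For 3 members, Fkbp5, Cdkn1a and Mt2, it was at 10 CPM or more and at least 2-fold above the next library, against 1.48% of all genes. For Fkbp5, Sgk1, Mt1 and Mt2 control library 1 was second. Without cell-treated library 3, groups did not overlap for 4 members, 1 higher (Nr3c1) and 3 lower (Fkbp5, Sgk1, Mt3), against 22.4% of all genes, 11.3% higher and 11.1% lower. An unadjusted edgeR p under 0.05 was then seen for 3 members, all lower, against 4.54% of 17524 genes in either direction, 2.34% with lower and 2.2% with higher values, and 0 members passed after adjustment. With cell-treated library 1 or 2 left out instead, the members at such a p were other genes, with higher values. The log2 fold change of Mt3 stayed below 0 without library 1 (-0.24) or library 2 (-0.18). Those of Fkbp5 (1.33 and 1.40) and Sgk1 (0.46 and 0.41) were above 0. Without cell-treated library 2 there were 3 members at an unadjusted p under 0.05, all higher: Cdkn1a (edgeR p 0.0142), Mt2 (0.0449) and Zbtb16 (0.0455). Of the 17562 genes tested there, 339 were higher and 314 lower at that p. Without cell-treated library 1 there were 2 members at that p, both higher: Zbtb16 (edgeR p 0.00354) and Mt2 (0.0439). Of the 17514 genes tested there, 204 were higher and 184 lower at that p.

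The chaperones and cofactors that act with the glucocorticoid receptor showed no such excess in cell-treated library 3. Of 12 measured, 9 had fitted values above 0 and 3 below, 0 passed the test, and the median log2 fold change was 0.21. Groups did not overlap for 3 of the 12, all higher in cell-treated cortex, against 4.3% of all genes with higher values. Nrip1, a nuclear receptor corepressor, was at 55.6, 48.4 and 42.0 CPM in cell-treated libraries, against 34.7, 29.5 and 33.9 CPM in controls (log2 fold change 0.57 ± 0.18, edgeR p 0.0114, adjusted p 0.999). Ncoa1, a coactivator of the receptor, was at 125, 139.6 and 138 CPM in cell-treated libraries, against 110.1, 110.0 and 104 CPM in controls. Ncoa2, a related coactivator, had a log2 fold change of 0.28 ± 0.18 (edgeR p 0.165), with overlap. Cell-treated library 3 was highest for 2 of the 12 genes and at least 2-fold above the next library for 0.

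Genes of corticosteroid metabolism and the corticotropin-releasing hormone system gave 10 tested of 12, with 5 above 0, 5 below and 0 passing (median 0.023). Groups did not overlap for 0 of the 10, against 8.6% of all genes. Crhbp, which encodes a protein that binds and sequesters the releasing hormone, was at 13.3, 15.9 and 73.1 CPM in cell-treated libraries, against 26.4, 11.8 and 16.7 CPM in controls. Next by p were Pomc, the precursor gene of the hormone ACTH (log2 fold change -0.46 ± 0.41, edgeR p 0.29), and H6pd (-0.19 ± 0.24, edgeR p 0.458). Serpina6, the gene of corticosteroid-binding globulin, had 0 counts in all 6 libraries.

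Of 27 other glucocorticoid-induced genes, 14 had fitted values above 0 and 13 below, 0 passed, and the median was 0.050. Cell-treated library 3 was the highest library for 19 of the 27 and the lowest for 2, against 28.7% and 32.6% of all genes, and 4 were at 10 CPM or more and at least 2-fold above the next library: Map3k6, Cebpd, Rasd1 and Nfkbia, chosen after their values were seen. Others of the 19, also picked after their values were seen, led only narrowly: Klf15 by 1.01-fold, Arrdc2 by 1.06-fold and Per1, Ddit4 and Angptl4 by 1.07-fold. The members and this list were chosen with earlier results of these data known, so these shares only describe them. Cebpd, a transcription factor gene of the acute phase response, was at 6.90, 8.44 and 39.99 CPM in cell-treated libraries, against 16.98, 8.27 and 12.5 CPM in controls. Nfkbia, an inhibitor of NF-kappaB, was at 13.4, 14.7 and 50.2 CPM in cell-treated libraries, against 22.7, 19.6 and 18.1 CPM in controls. Both repeat the order seen for Fkbp5 at the top, with cell-treated library 3 first and control library 1 second. The genes of smallest p were Angptl4 (log2 fold change 0.82 ± 0.40, edgeR p 0.0756), Errfi1 (0.42 ± 0.24, edgeR p 0.11) and Klf9 (0.51 ± 0.31, edgeR p 0.137). Without cell-treated library 3, groups did not overlap for 8 of the 27, all lower, against 11.1% of all genes with lower values, and the list's median was -0.39.

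Not every glucocorticoid-induced gene stood well above the other libraries in cell-treated library 3. Dusp1, a phosphatase gene, was at 28.0, 27.6 and 33.0 CPM in cell-treated libraries, against 24.9, 28.7 and 32.0 CPM in controls. It counts among the genes highest in cell-treated library 3, but by only 1.03-fold over the next library. Glul, the glutamine synthetase gene of astrocytes, was at 2032, 2266 and 731 CPM in cell-treated libraries, against 2831, 2313 and 1742 CPM in controls, the lowest value of all being in cell-treated library 3. These 2 genes were chosen after their values were seen.

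**Figure D3:**
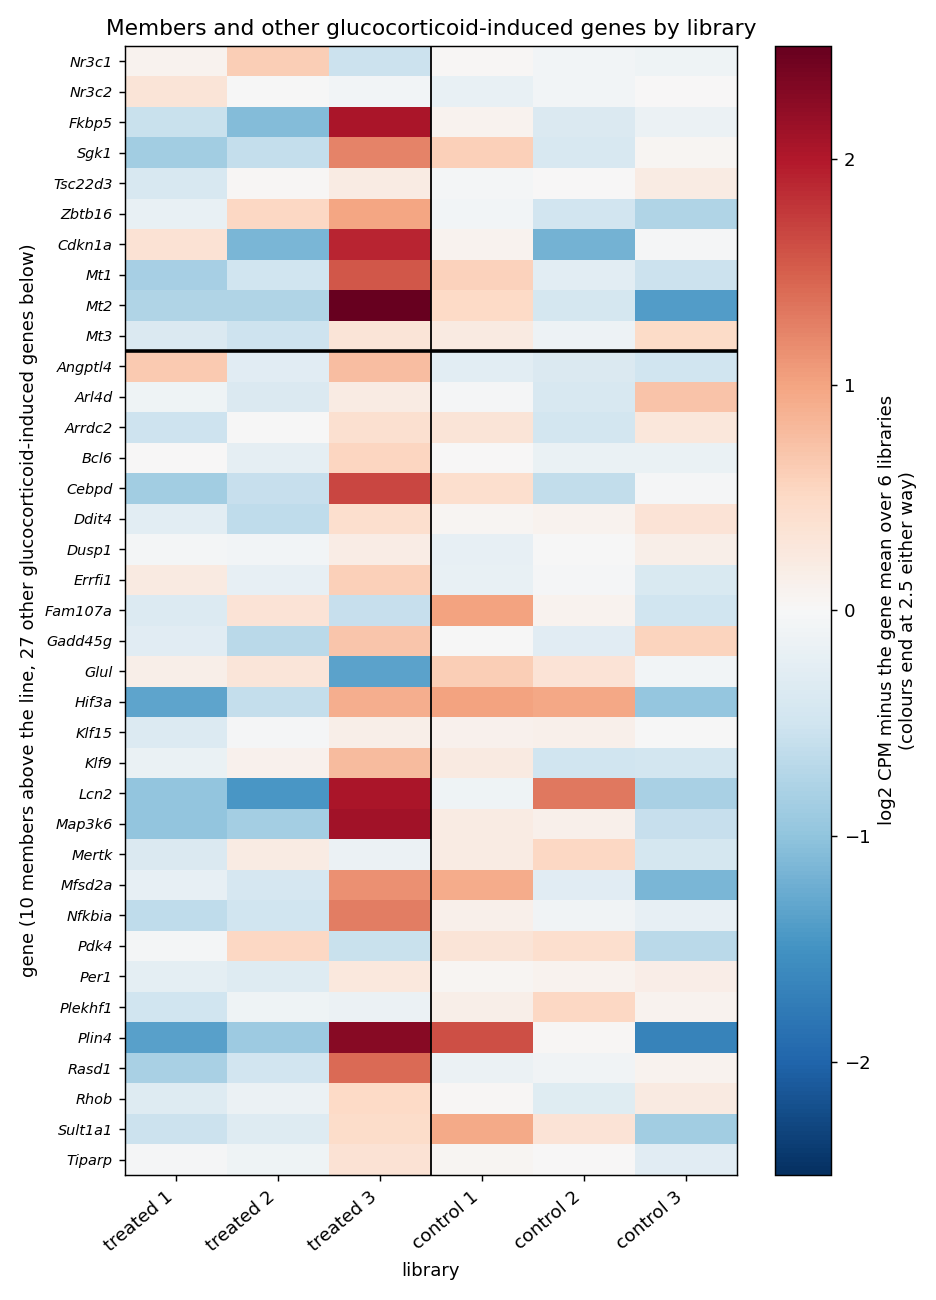
The 10 members and 27 other glucocorticoid-induced genes in the 6 libraries, as log2 CPM minus the mean of the 6, with cell-treated libraries left of controls. Cell-treated library 3 was highest for 7 of the 10 members and 19 of the 27 other genes. Some of these led only narrowly, among them Tsc22d3, which was level with control library 3.

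Among Sgk1 relatives and effectors 10 of 12 were tested, 3 had values above 0 and 7 below, 0 passed, and the median was -0.032. Ndrg2, a substrate of the kinase, had the smallest p, at 750, 927 and 252 CPM in cell-treated libraries, against 1269, 1213 and 733 CPM in controls (log2 fold change -0.74 ± 0.46, edgeR p 0.146). Sgk3, a related kinase, was at 23.1, 24.0 and 31.0 CPM in cell-treated libraries, against 22.9, 21.8 and 22.2 CPM in controls. It was the 1 gene of the 10 without overlap (10%), near the 8.6% of all genes. Gsk3b, another substrate, had a log2 fold change of 0.22 ± 0.21 (edgeR p 0.322). Of the 3 relatives of Tsc22d3, 2 had values above 0 and 1 below. Tsc22d4 was at 67.6, 83.9 and 74.0 CPM in cell-treated libraries, against 139, 96.0 and 88.3 CPM in controls (log2 fold change -0.52 ± 0.21, edgeR p 0.0402, adjusted p 0.999), and its groups did not overlap. Tsc22d2 also had no overlap, with higher values in cell-treated libraries (0.42 ± 0.19, edgeR p 0.0587).

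The excess of Cdkn1a in cell-treated library 3 had no counterpart of that size among other p53 targets. The list held 14 genes, 1 of them Trp53, which encodes p53 itself. Of the 14, 9 had values above 0 and 5 below, 0 passed, the median was 0.055, and 0 were at least 2-fold above the next library in cell-treated library 3. Phlda3, a p53-induced repressor of Akt, was at 18.7, 20.7 and 19.5 CPM in cell-treated libraries, against 25.5, 20.8 and 36.1 CPM in controls, so that library 2 of both groups was level (log2 fold change -0.48 ± 0.23, edgeR p 0.0732). Sesn2 (0.47 ± 0.26, edgeR p 0.108) and Trp53inp1 (0.31 ± 0.19, edgeR p 0.135) came next by p. Of 5 other cyclin-dependent kinase inhibitors tested, 2 had values above 0 and 3 below, with a median of -0.049, the smallest p being 0.313 for Cdkn2b, and cell-treated library 3 was highest for 0.

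Zinc and copper handling genes gave 23 tested of 24, with 13 above 0, 10 below, 0 passing and a median of 0.020. Mtf1, which encodes the zinc sensor that binds metal response elements, was at 28.2, 28.6 and 33.6 CPM in cell-treated libraries, against 22.3, 24.7 and 21.5 CPM in controls. All 3 cell-treated values lay above all controls (log2 fold change 0.40 ± 0.17, edgeR p 0.048, adjusted p 0.999). Slc30a3, the transporter that loads zinc into synaptic vesicles, was at 72.3, 72.5 and 41.5 CPM in cell-treated libraries, against 88.9, 113 and 106 CPM in controls. All 3 values were below all controls (-0.72 ± 0.24, edgeR p 0.0176, adjusted p 0.999). Groups did not overlap for these 2 of the 23 genes (8.7%), near the 8.6% of all genes. Slc30a4, another zinc exporter, was at 66.1, 87.2 and 103 CPM in cell-treated libraries, against 70.4, 49.8 and 57.5 CPM in controls, with overlap at cell-treated library 1.

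Of 13 cytokine and oxidant signalling genes tested, 10 had values above 0 and 3 below, 0 passed and the median was 0.12. Stat3, a cytokine-activated transcription factor gene, was at 80.9, 87.3 and 197 CPM in cell-treated libraries, against 97.9, 81.8 and 90.9 CPM in controls. Srxn1, the antioxidant enzyme sulfiredoxin, was at 74.5, 84.7 and 359 CPM in cell-treated libraries, against 123, 66.3 and 95.1 CPM in controls. Gclc, an enzyme of glutathione synthesis, was at 58.0, 66.5 and 85.3 CPM in cell-treated libraries, against 59.0, 57.7 and 63.5 CPM in controls. These are the 3 genes of smallest p (edgeR p 0.181, 0.238 and 0.268 for Srxn1, Stat3 and Gclc). Cell-treated library 3 was highest for 8 of the 13 genes and lowest for 2, and at least 2-fold above the next library for 3, which are Srxn1, Stat3 and Socs3. The next 3 genes were chosen after their values were seen. Socs3, a feedback inhibitor of cytokine signalling, was at 3.70, 6.15 and 42.4 CPM in cell-treated libraries, against 11.2, 7.50 and 8.88 CPM in controls. Slc7a11, a cystine transporter gene, was at 100.1, 75.9 and 22.8 CPM in cell-treated libraries, against 83.0, 139 and 43.7 CPM in controls, and Nfe2l2, an antioxidant regulator, at 29.3, 35.1 and 16.9 CPM in cell-treated libraries, against 32.4, 34.8 and 19.1 CPM in controls.

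The genes closest in pattern to a member were found by the root mean square difference of log2 CPM, centred on each gene's mean over the 6 libraries, among 13203 genes, for the 7 members that ranged at least 2-fold. Closest to Mt2 were Hspb1 (0.164), a small heat shock protein gene, Angpt2 (0.166) and Lilr4b (0.174). Hspb1 was at 7.21, 6.76 and 93.8 CPM in cell-treated libraries, against 15.7, 8.83 and 6.01 CPM in controls. Closest to Mt1 were Rhoj (0.0749), S100a6 (0.129) and Smim3 (0.152), and to Sgk1 Bok (0.140), Bst2 (0.178) and Zswim7 (0.196). Closest to Fkbp5 were Ifi30 (0.221), Sap30 (0.251) and Ninj1 (0.281). Cdkn1a was nearest to Klhl40 (0.290), Shb (0.360) and Scg2 (0.371), Zbtb16 to Fezf2 (0.161), Xaf1 (0.186) and Dnah10 (0.205), and Nr3c1 to Osbpl3 (0.0567), Ppip5k2 (0.0753) and Cdk19 (0.0786). No other member was among the 3 nearest genes of any of them.

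Markers of cells that express these genes also differed in cell-treated library 3. All 10 astrocyte markers had fitted values below 0, summing to 5999, 8073 and 1616 CPM in cell-treated libraries, against 9065, 8700 and 4879 CPM in controls, with cell-treated library 3 lowest for 9 of 10. Markers of reactive astrocytes were highest in cell-treated library 3 for 7 of 8 genes, and the list summed to 1265, 2212 and 3169 CPM in cell-treated libraries, against 4235, 1974 and 1581 CPM in controls. Vim, an intermediate filament gene of this list, was at 106, 117 and 1015 CPM in cell-treated libraries, against 290, 122 and 89.1 CPM in controls. The exception among the 8 markers was Gfap, which made up most of each sum but that of cell-treated library 3, at 1062, 1920.1 and 1435 CPM in cell-treated libraries, against 3416, 1722 and 1391 CPM in controls. Without Gfap the list summed to 203, 292 and 1735 CPM in cell-treated libraries, against 818, 252 and 190.0 CPM in controls.

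Oligodendrocyte markers summed to between 3003 and 7864 CPM in cell-treated libraries and between 5072 and 8544 CPM in controls, with cell-treated library 3 lowest for 8 of 8 genes. Microglial markers summed to 603 to 1281 CPM in cell-treated and 717 to 937 CPM in control libraries, highest in cell-treated library 3. The interferon response list was highest in cell-treated library 3 for 7 of 7 genes, and summed to 65.8 to 212 CPM in cell-treated and 83.7 to 89.5 CPM in control libraries. Immediate early genes summed to 635, 553 and 143 CPM in cell-treated libraries, against 379, 430 and 533 CPM in controls. Hippocampal and dentate markers reached 904 CPM in cell-treated library 3, of which Wfs1 was 702 CPM, against 188 to 321 CPM in the other 5 libraries. Cell-treated library 3 was highest for 3 of these 5 genes and lowest for 1, Prox1, at 10.9 CPM against 15.1 to 27.5 CPM elsewhere. GABAergic neuron markers, the class of the transplanted cells, summed to 1452, 648 and 1317 CPM in cell-treated libraries, against 803, 535 and 1294 CPM in controls, and striatal markers to 240 to 346 CPM in cell-treated and 521 to 1362 CPM in control libraries. Olfactory bulb markers summed to 320 CPM in cell-treated library 1 and to at most 31.2 CPM elsewhere. Endothelial markers summed to 372 to 404 CPM in cell-treated and 287 to 475 CPM in control libraries. Red blood cell genes summed to 105 to 275 CPM in cell-treated and 6.78 to 49.4 CPM in control libraries. None of these markers was at 0 in every library, and their part in the members' values was not tested.

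**Figure D4:**
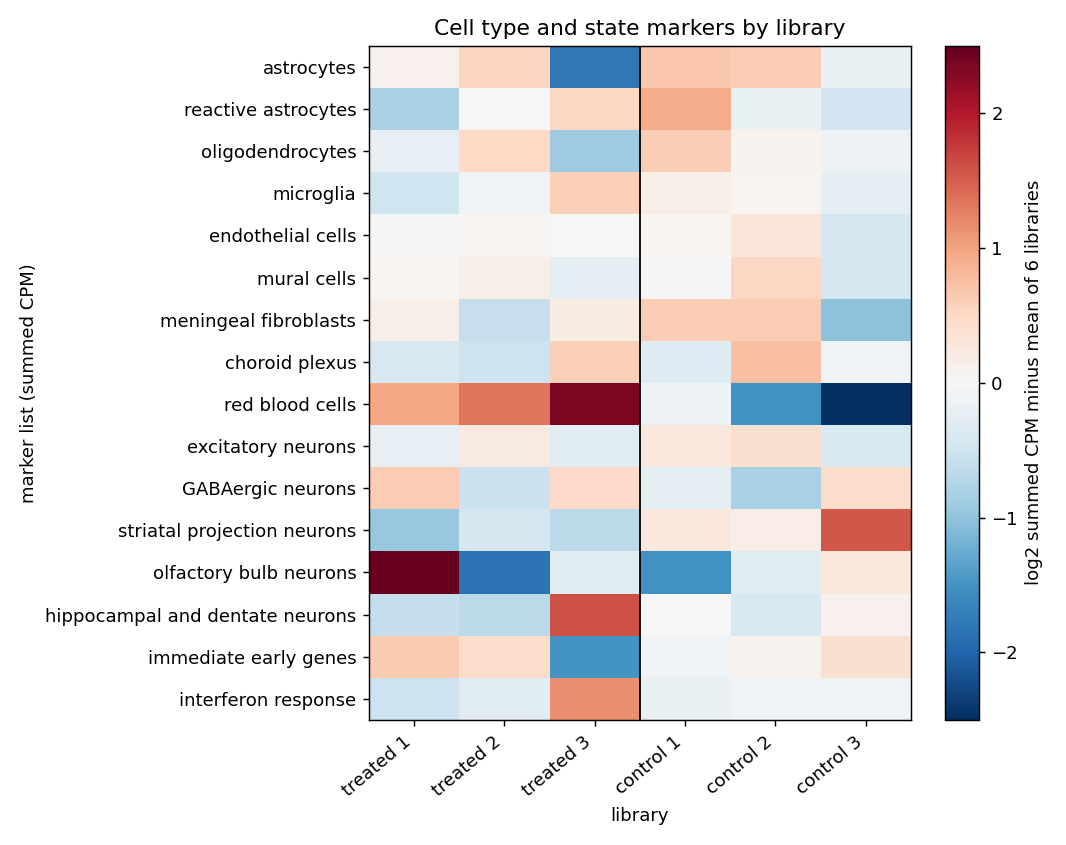
Summed CPM of each marker list, as log2 minus the mean of the 6 libraries, with cell-treated libraries left of controls. Cell-treated library 3 was lowest for astrocytes, oligodendrocytes and immediate early genes and highest for red blood cells, hippocampal and dentate neurons and the interferon response. Most of its hippocampal and dentate sum was Wfs1.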

How the data were processed

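Per the labels' protocols, polyadenylated RNA was fragmented, reverse transcribed from random hexamers and PCR-amplified, and no strand-marking kit is named, so overlapping genes can share reads. The deposited table holds whole-number counts per gene, made, per the submitters' processing notes, with featureCounts, HISAT2 2.0.5 and DESeq2 among the tools. Genome build and annotation were not given in the sources used here. Coordinates are as deposited, and 98.3% of 54409 identifiers shared with GENCODE M21 (GRCm38) had the same start and end, 9 of the 10 members among them. The deposited FPKM values carry a library scaling by the authors of 0.953 to 1.03 and were used for levels between genes.

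The test on counts was edgeR 4.0.16 under R 4.3.3 (filterByExpr, minimum count 10 and minimum total 15, TMM, robust quasi-likelihood F test, Benjamini-Hochberg adjustment over all genes tested, threshold 0.05, two-sided). CPM values are TMM-scaled, and standard errors come from the F statistic. In each gene list up to 3 genes of smallest p are named, others being marked as chosen after their values were seen, and the 3 most similar genes for each member ranging at least 2-fold (average log2 CPM of at least 1). Alternatives were DESeq2 1.42.0, limma 3.58.1 voom and log2 FPKM with a pseudocount of 1 or 0.1, other scaling and filters, a replicate block and libraries left out. The members and lists were chosen with earlier results of these data known. Figures were drawn with matplotlib 3.10.9.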

Additional observations from a re-analysis of the deposited data

How the results depend on the processing

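No member passed an adjusted p of 0.05 under any alternative run. The smallest was 0.433, for both Mt3 (log2 fold change -0.52) and Sgk1, by limma voom with sample quality weights. Log2 fold changes turned below 0 by voom with quality weights for Fkbp5 (-0.55), Mt1 (-0.81), Mt2 (-0.61) and Sgk1 (-0.91), and without library 3 of both groups for Fkbp5 (-0.68), Mt1 (-0.87), Mt2 (-0.86) and Sgk1 (-0.91). Sgk1 was also below 0 by limma voom (-0.16) and on log2 FPKM with a pseudocount of 1 (-0.12) or 0.1 (-0.14). With single libraries left out, ranges were -0.68 to 1.40 for Fkbp5, -0.66 to 0.89 for Mt1, -0.51 to 2.32 for Mt2, -0.87 to 0.46 for Sgk1, -0.15 to 0.42 for Nr3c1 and -0.24 to 0.057 for Tsc22d3, which turned sign, and 0.065 to 1.60 for Cdkn1a, 0.042 to 0.24 for Nr3c2, 0.61 to 1.18 for Zbtb16 and -0.65 to -0.18 for Mt3, which did not. Members with values above 0 numbered 4 by quality weights, 4 without library 3 of both groups, and 4 to 9 with single libraries left out. Of all genes, DESeq2 called 5 higher and 4 lower, and edgeR without a low-count filter called 1 higher. Counts at an unadjusted p under 0.05 were 952 higher and 935 lower by quality weights, 329 and 340 without a filter, 764 and 767 without library 3 of both groups, and 82 to 386 higher and 121 to 410 lower with single libraries left out. Counting genes without overlap after leaving out cell-treated library 3 (3817 genes) was chosen after seeing the data. The cause of these shifts was not tested. Same-numbered libraries correlated at -0.277, 0.0815 and 0.0728 after removing group means, so the numbers were not taken to pair samples. With the replicate block Sgk1 was at -0.16, the other members kept their sign, and no member passed. The median log2 fold change over all genes was between -0.021 and 0.013 under the other scalings. With 3 libraries per group and 1 standing apart, the intervals of Fkbp5, Sgk1, Zbtb16, Cdkn1a, Mt1 and Mt2 reach past 2-fold higher values. That of Sgk1 (from -1.15) also reaches past 2-fold lower values, and those of Mt3 (from -0.97) and Mt1 (from -0.96) come near them.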
